A study of Xenopus laevis with 6 samples.

Results

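The genes jun and fos encode the subunits of the transcription factor AP-1, and they were followed here through the probe sets that the platform annotation gives to jun.L or to fos.S alone. There was 1 such probe set for jun.L and 1 for fos.S, among 32539 probe sets that carried 11303 distinct single gene symbols. The endings .L and .S mark the gene copies on the long and short subgenomes of the frog Xenopus laevis. The pair was chosen on its signal change with ERK3 morpholinos in each culture. Those changes are therefore given as a description with no test, and tests are kept for contrasts whose estimates the choice did not use. The standard errors of those contrasts do take in the difference between cultures in the ERK3 change, which the choice used. Their p-values and intervals for jun.L and fos.S are thus partly set by the choice.

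The RNA came from animal caps, explants of blastula ectoderm that become epidermis unless given an inducer. ERK3, an atypical member of the MAP kinases, is the product of mapk6, and the series title places it in the formation of epithelial architecture. Morpholinos are antisense oligonucleotides that keep their target RNA from being translated or spliced, and they went animally into every cell of 4-cell embryos. Caps were taken at stage 9 and harvested for RNA at stage 15. In 3 groups the caps had no added factor (untreated), and in the other 3 they were exposed to activin with retinoic acid (activin/RA), a treatment that turns caps towards mesoderm and pronephros. Each culture had a group with 80 ng of a control morpholino, a group with ERK3 MO1 and MO2 together at 40 ng each (MO1/2), and a group with 80 ng of ERK3 MO3. All groups, controls included, thus carried an injected morpholino. Every group was 1 array from 250 ng of total RNA, all in 1 experiment, so there were no replicates of a group. The p-values below thus reflect the spread among these 6 arrays alone, and that spread may be technical. The targeted transcript was not analysed here, since mapk6 was the symbol of no probe set.

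AP-1 is a pair of basic leucine zipper proteins. Jun proteins bind DNA with each other or, more tightly, with a Fos protein, whereas Fos proteins do not pair among themselves. In vertebrate cells jun and fos are immediate early genes: growth factors, stress and wounding raise their transcripts within minutes through MAP kinases that act on factors already in place, and both transcripts decay fast. In Xenopus embryos AP-1 has been linked to FGF signalling and to the mesoderm gene brachyury, and in mammalian skin its subunits regulate keratinocyte genes.

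The arrays had close distributions, with median log2 signals of 5.08 to 5.14. Arrays of the same culture with the 2 ERK3 reagents correlated at r = 0.992 in untreated and 0.993 in activin/RA caps, across probe sets. Arrays of unlike groups also correlated highly, with a lowest r of 0.943 over all pairs and 0.972 between the 2 control arrays. Mesoderm and endoderm markers followed the labels: 17 of 19 mesoderm copies and 14 of 16 endoderm copies rose with activin/RA (limma, adjusted p under 0.05), against 9.60% of all probe sets, whereas 10 of 12 muscle copies were at or below the median signal on all arrays. Epidermal markers were expressed in both cultures, and with activin/RA 6 of their 18 copies rose and 1 fell (9.60% and 10.9% of all probe sets), with a median of 0.95. Without either control array 11 rose, and without either MO1/2 array 3 did, with 0 falling in these fits. Of all 32539 probe sets 4968 rose without either control array, and at most 1030 without either MO1/2 array. The summed linear intensity of the 18 was 18445 in untreated controls against 10302 and 11683 with the ERK3 reagents, and 13 of the 18 fell there, against 3.56% of all probe sets. In activin/RA caps that sum was 15964 in the control against 11515 and 11975, and 1 copy fell, against 0.126% of all probe sets. Fewer cells of a type and less RNA per cell cannot be told apart in such bulk samples.

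The transcript of jun.L, the copy of c-Jun on the long subgenome, was lowest in activin/RA caps with the control morpholino. In untreated caps its log2 signal was 7.15 with the control morpholino, 6.98 with MO1/2 and 6.29 with MO3. With activin/RA it was 5.52 with the control morpholino, 6.87 with MO1/2 and 6.99 with MO3. Both reagents thus lay below the control in untreated caps and above it in activin/RA caps. In untreated caps MO1/2 differed from the control by -0.17 and MO3 by -0.85 on the log2 scale, a mean of -0.51 ± 0.48 (SD of the 2 reagents). The activin/RA differences were 1.35 with MO1/2 and 1.48 with MO3, a mean of 1.41 ± 0.09 (SD of the 2 reagents), or 2.66-fold. The pair of reagents stood much closer together in activin/RA caps than in untreated caps.

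A further probe set is annotated to both jun copies, jun.L and jun.S, and is no member because it names no single gene. Its log2 signal was 7.06, 6.65 and 5.94 in untreated caps with the control morpholino, MO1/2 and MO3. The activin/RA values were 4.90, 6.33 and 6.58 in the same order. Within each culture its 3 arrays stood in the same order as those of jun.L, with mean ERK3 differences of -0.76 in untreated and 1.55 in activin/RA caps. The jun copies can share probes, so neither probe set separates their transcripts with certainty, and the same holds for the copies of fos.

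The transcript of fos.S, the copy of c-Fos on the short subgenome, was also lowest in activin/RA caps with the control morpholino. In untreated caps its log2 signal was 9.48 with the control morpholino, 8.96 with MO1/2 and 8.40 with MO3. With activin/RA it was 7.22 with the control morpholino, 8.56 with MO1/2 and 8.33 with MO3. In linear intensity the 2 control arrays stood at 713 and 149, and the 4 ERK3 morpholino arrays lay between them, at 322 to 499. In untreated caps the differences from the control were -0.52 with MO1/2 and -1.08 with MO3, a mean of -0.80 ± 0.40 (SD of the 2 reagents). With activin/RA they were 1.34 with MO1/2 and 1.11 with MO3, a mean of 1.23 ± 0.16 (SD of the 2 reagents), or 2.34-fold.

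**Figure D1:**
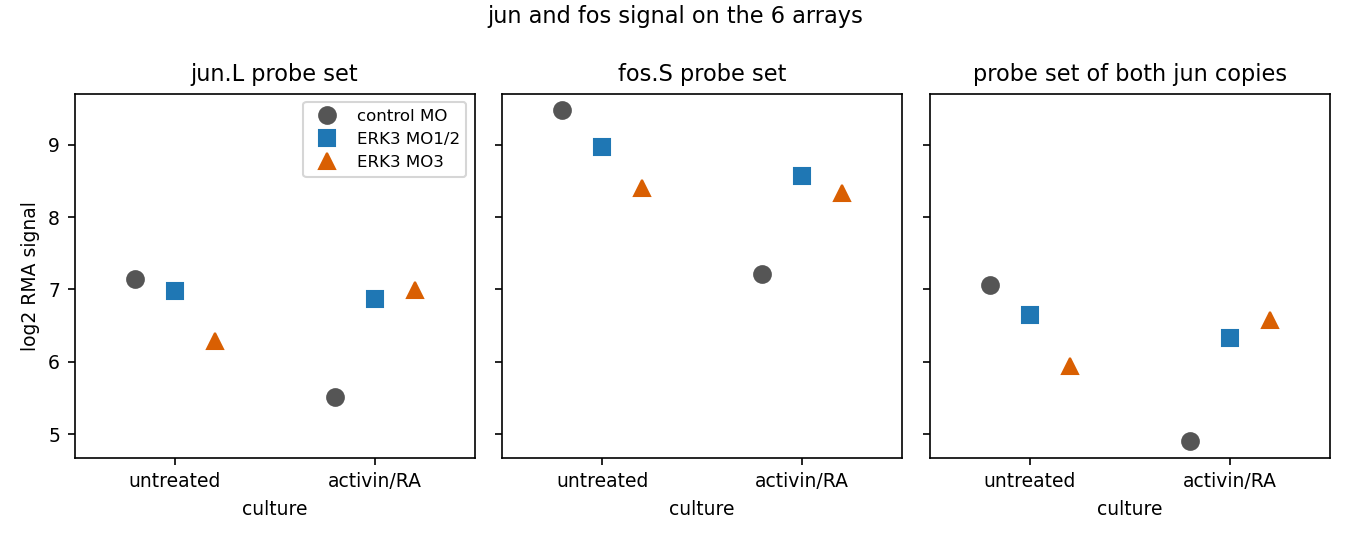
Log2 signal (vertical axis) of jun.L, of the probe set annotated to both jun copies and of fos.S on each of the 6 arrays, by culture and morpholino, with 1 point per array and so no error bars. The lowest value of each probe set is the activin/RA array with the control morpholino, for example 5.52 for jun.L and 7.22 for fos.S.

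Counts over all probe sets place these values, which the choice of the genes used. A signal at least 2-fold above the control with both reagents was found in activin/RA caps for 51 probe sets (0.157%), and jun.L and fos.S were among them. In untreated caps, 825 probe sets (2.54%) were at least 2-fold below the control with both reagents, and neither member was. A position below the control with both reagents in untreated caps and above it with both in activin/RA caps, at any size, was shared by 2884 probe sets (8.86%). The ERK3 differences within a culture share its 1 control array, so a deviation of that array would move both of them together.

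The effect of activin/RA was tested with limma over the 3 morpholino pairs, a contrast whose estimate the choice of the genes did not use. Its standard error comes from the differences among the pairs, which hold the ERK3 changes that the choice used. Not passing is thus partly set by the choice. For jun.L, activin/RA minus untreated was -1.63 for control, -0.11 for MO1/2 and 0.70 for MO3. The sign thus differed among the pairs, lower in 2 of 3. The mean of -0.34 ± 0.38 (SE, n = 3 pairs; 95% interval -1.24 to 0.55) did not pass, at a limma adjusted p of 0.578. Without either control array the mean was 0.30, so the direction rested on the control pair. Of all probe sets 20.5% passed this comparison.

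For fos.S, activin/RA minus untreated was -2.26 for control, -0.40 for MO1/2 and -0.07 for MO3. All 3 pairs were lower in activin/RA, the control pair by 4.79-fold and the MO3 pair by 1.05-fold. The mean of -0.91 ± 0.37 (SE, n = 3 pairs; 95% interval -1.78 to -0.03) did not pass, at a limma adjusted p of 0.131. It did pass without the activin/RA MO3 array, at -1.33 with a limma adjusted p of 0.0485, and it was -0.23 without either control array. With an array left out the 3 pairs no longer weigh equally, so both estimates draw on the ERK3 changes that the choice used. That pass is thus no separate support. Set against all probe sets, an activin/RA signal at least 2-fold below the untreated one was found for 2.67% of them with the control morpholino, 4.82% with MO1/2 and 3.94% with MO3. Both members crossed that line in the control pair and in no other. The gap between the control pair and the others is the culture difference in the ERK3 change, which the choice used. It is therefore a description and no separate support.

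**Figure D2:**
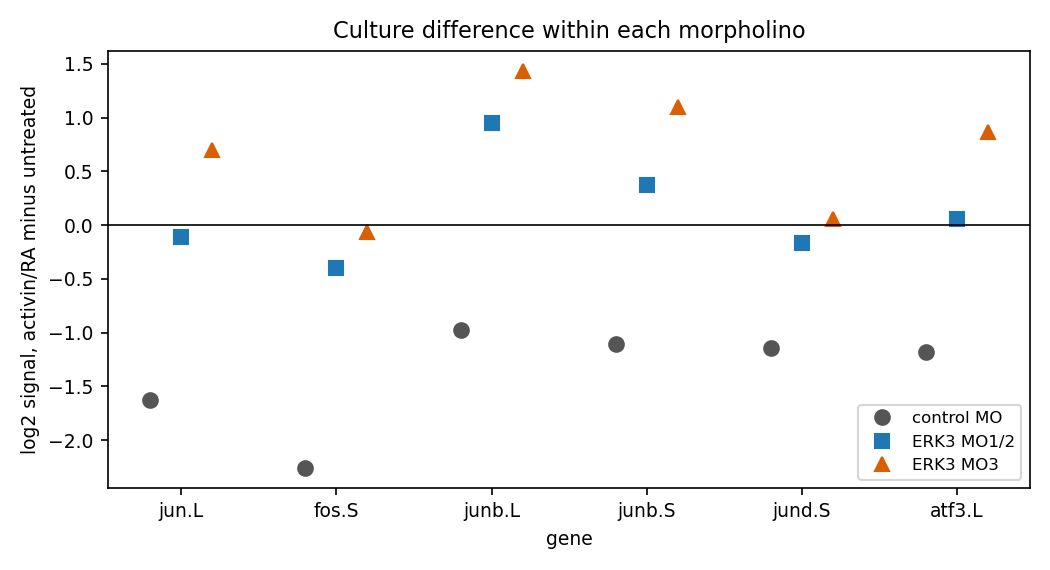
Activin/RA minus untreated log2 signal (vertical axis) for each morpholino pair, with 1 point per pair of arrays. The genes are jun.L, fos.S, junb.L, junb.S and jund.S of the Jun and Fos family, and atf3.L of the ATF genes. Each is shown by its probe set of highest mean signal. The control pair is the lowest for jun.L (-1.63) and fos.S (-2.26), and the pairs with ERK3 morpholinos lie nearer to 0 or above it. For these 2 genes that gap is the culture difference in the ERK3 change, which their choice used.

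The pair of ERK3 reagents was also compared over both cultures. In untreated caps MO3 minus MO1/2 was -0.68 for jun.L and -0.57 for fos.S. The activin/RA values were 0.13 for jun.L and -0.23 for fos.S. The mean for jun.L was -0.28 ± 0.47 (SE, n = 2 cultures; 95% interval -1.37 to 0.82; limma adjusted p = 0.980), and that for fos.S was -0.40 ± 0.46 (SE, n = 2 cultures; 95% interval -1.47 to 0.67; limma adjusted p = 0.964). These intervals include differences of 2-fold in favour of MO1/2, and their width comes from the same fit as the culture effect, so it is also partly set by the choice. In limma 0 of 32539 probe sets (0.00%) passed between the reagents, with 1973 at an unadjusted p under 0.05.

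Other Jun genes had the same order of arrays in part. The Jun and Fos list of 7 names was measured through 4 names and 5 gene copies: jun.L, fos.S, junb.L, junb.S and jund.S. JunB and JunD pair with Fos proteins as c-Jun does, and JunB is often a weaker activator. The ERK3 change was tested for the 3 copies that are no members. In untreated caps 1 of these 3 fell, junb.L, against 3.56% of all probe sets. None passed in activin/RA caps (0 of 3 in limma, with 3 at an unadjusted p under 0.05). Of all probe sets 0.0123% rose there in limma, and 10.9% had an unadjusted p under 0.05 in either direction. The median difference over the 5 copies was -0.80 in untreated and 1.03 in activin/RA caps, beside 0.01 in each culture for all probe sets. The members are among the 5, so these medians are partly set by their choice.

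The log2 signal of junb.L was 8.63 with the control morpholino, 7.23 with MO1/2 and 7.19 with MO3 in untreated caps. With activin/RA it was 7.66, 8.18 and 8.63 in the same order. It fell in untreated caps, by a log2 change of -1.42 ± 0.22 (SE; limma adjusted p = 0.0201), with both reagents below the control. The call was lost without the untreated MO1/2 array, at a limma adjusted p of 0.0637 and a change of -1.44. The activin/RA difference was 0.74 ± 0.22 (SE; limma adjusted p = 0.307). Unlike jun.L, junb.L dropped almost equally with both reagents in untreated caps. Its activin/RA minus untreated difference did not pass over the 3 pairs (0.47, limma adjusted p = 0.462). Without the untreated or the activin/RA control array it was 1.19 and passed in limma, as did 10628 and 10636 of all 32539 probe sets. Both fits take the 1.19 from the same ERK3 morpholino arrays, so they are not separate support.

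For junb.S the stronger of 2 probe sets read 5.88, 5.25 and 4.89 in untreated caps and 4.78, 5.63 and 5.98 in activin/RA caps, in the order control, MO1/2, MO3. The ERK3 difference was -0.81 in untreated (limma adjusted p = 0.109) and 1.03 in activin/RA caps (limma adjusted p = 0.253). Its other probe set, at 4.72 to 5.26 on all arrays, differed by 0.13 and 0.45, so the probe sets disagreed in sign in untreated caps.

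For jund.S the stronger of 2 probe sets was almost level in untreated caps, at 8.16, 8.07 and 8.05 for control, MO1/2 and MO3. With activin/RA it was 7.02 with the control morpholino, 7.90 with MO1/2 and 8.10 with MO3. Here a single array, the activin/RA control, stood apart from the other 5. The ERK3 difference was -0.10 (limma adjusted p = 0.795) in untreated and 0.98 (limma adjusted p = 0.121) in activin/RA caps. The other jund.S probe set lay at 2.20 to 2.54 on all arrays, near the bottom of the scale.

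The difference between the cultures in the ERK3 response was tested for these 3 genes with the interaction term of the limma fit. It was 2.17 ± 0.31 (SE; 95% interval 1.45 to 2.88) for junb.L, with a limma adjusted p of 0.229. It was 1.84 (limma adjusted p = 0.314) for junb.S and 1.08 (limma adjusted p = 0.334) for jund.S. None of the 3 passed, as was so for all 32539 probe sets (0 passing or 0.00% in limma, 3061 at an unadjusted p under 0.05). For jun.L and fos.S the same quantity was 1.92 and 2.03, given without a test.

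Genes of the ATF, Maf and CREB families encode leucine zipper proteins, many of which can pair with Jun or Fos. Of 20 names 8 were measured, through 9 gene copies, and in both cultures 0 of the 9 passed in limma for the ERK3 morpholinos, with 2 in untreated and 1 in activin/RA caps at an unadjusted p under 0.05. Of all probe sets, 6.70% passed in untreated and 0.138% in activin/RA caps. At an unadjusted p under 0.05 the shares of all probe sets were 23.9% and 10.9%. The median difference of the 9 copies was -0.24 in untreated and 0.21 in activin/RA caps. The stress-induced repressor gene atf3.L read 7.37, 7.18 and 6.55 in untreated caps and 6.19, 7.23 and 7.42 in activin/RA caps, in the order control, MO1/2, MO3. Its difference was -0.51 (limma adjusted p = 0.317) in untreated and 1.13 (limma adjusted p = 0.229) in activin/RA caps. The array order of atf3.L was close to that of jun.L, whereas the differences of atf4.L, creb1.S and maff.S lay between -0.34 and 0.25 in both cultures. The oxidative stress regulator nfe2l2.L was -0.76 (limma adjusted p = 0.134) in untreated and 0.21 in activin/RA caps. With activin/RA 1 of the 9 rose, nfe2l1.S, by 1.10 (limma adjusted p = 0.00429), where 9.60% of all probe sets rose.

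The factors that switch jun and fos on include serum response factor, its ETS partners such as Elk, MRTF coactivators and MEF2. Of 15 names 10 were measured, through 16 copies. With the ERK3 morpholinos 2 copies rose in untreated caps and 0 fell, with a median of 0.30, where 3.14% of all probe sets rose. They were both copies of ets1, an ETS factor downstream of ERK1/2: ets1.S by 1.83 (limma adjusted p = 0.0256) and ets1.L by 1.34 (limma adjusted p = 0.0327). The probe sets of ets1.L disagreed in size, from 0.00 to 1.68. Both calls were lost without the untreated MO1/2 array, at adjusted p of 0.0859 and 0.110 in limma. The median in activin/RA caps was 0.04, and 0 of 16 passed in limma, with 1 at an unadjusted p under 0.05. Of all probe sets 10.9% had such an unadjusted p there. The SRF coactivator mrtfa.S differed by 0.79 in untreated and 0.72 in activin/RA caps (limma adjusted p of 0.0675 and 0.307). Its other probe set differed by -0.07 and 0.23, so the probe sets disagreed in sign in untreated caps. With activin/RA ets2.L rose by 0.76 (limma adjusted p = 0.00386) in a list where 2 copies rose and 1 fell. Of all probe sets 9.60% rose and 10.9% fell there.

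Transcripts of the kinase cascades above AP-1 were counted in the same way. In the Ras to ERK1/2 cascade 1 of 11 copies rose in untreated caps (3.14% of all probe sets), rps6ka3.L, which encodes the ribosomal S6 kinase RSK2, by 1.10 (limma adjusted p = 0.0414). That call was lost whenever any 1 of the 4 ERK3 morpholino arrays was left out. In activin/RA caps 0 of the 11 passed in limma, with 2 at an unadjusted p under 0.05, and map2k1.L, the ERK1/2 kinase MEK1, differed by 0.44 and 0.46 in the 2 cultures without passing. In the JNK and p38 cascades, which phosphorylate Jun and ATF proteins, 0 of 17 copies passed in limma for the ERK3 morpholinos in either culture, with 3 in untreated and 4 in activin/RA caps at an unadjusted p under 0.05. Of all probe sets, 6.70% passed in untreated and 0.138% in activin/RA caps for these morpholinos. At an unadjusted p under 0.05 the shares of all probe sets were 23.9% and 10.9%. With activin/RA 3 of the 17 fell and 1 rose, where 10.9% of all probe sets fell and 9.60% rose. The JNK kinase copy map2k4.L fell by 0.96 (limma adjusted p = 0.00278), from 7.29 to 6.39 between the control arrays, and kept its call with each array left out in turn. Among genes tied to ERK3 itself, 5 of 8 names were measured: pak1.S, pak2.S and pak3.L, which encode p21-activated kinases that phosphorylate ERK3, and ncoa3.S and tbxas1.L. For the ERK3 morpholinos 0 of the 5 passed in limma, and 0 had an unadjusted p under 0.05, with differences of -0.26 to 0.39. With activin/RA pak3.L fell by 0.95 (limma adjusted p = 0.00803), a call lost without either MO1/2 array, at a highest adjusted p of 0.0774 in limma.

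The ubiquitin ligase subunits COP1 and DET1 mark c-Jun for destruction in mammalian cells. Of the 8 copies measured in this turnover list 1 rose in untreated caps with the ERK3 morpholinos, where 3.14% of all probe sets rose. It was det1.L, by 1.43 (limma adjusted p = 0.0178), a call lost without the untreated MO1/2 array. Its log2 signal was 5.54, 7.01 and 6.93 in untreated caps with control, MO1/2 and MO3, and 5.29 to 5.40 in activin/RA caps. With activin/RA 2 of the 8 fell, where 10.9% of all probe sets fell. They were det1.L, by 1.16 (limma adjusted p = 0.0287), and cop1.L, by 0.91 (limma adjusted p = 0.00245). The cop1.L call was kept with each array left out in turn. The fall of det1.L lost its call without any 1 of the 4 ERK3 morpholino arrays. The remaining copies of the list, among them fbxw7.L, which encodes the receptor of another Jun ligase, did not pass in any of these comparisons. With activin/RA fbxw7.L differed by 0.41 (limma adjusted p = 0.0521). In that comparison 1 copy of the list rose with no trend, with a filter at the median signal, with quantile normalization and with median centring.

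Other immediate early genes passed in both directions in untreated caps. Through 31 of 47 names, 45 copies were measured. In activin/RA caps 0 of the 45 passed for the ERK3 morpholinos in limma, with 10 at an unadjusted p under 0.05. Of all probe sets 0.138% passed there and 10.9% had such an unadjusted p. Of the 45 copies 26 lay above the control in activin/RA caps, with a median of 0.11. In untreated caps 3 rose and 5 fell, with a median of -0.23, where 3.14% of all probe sets rose and 3.56% fell. The kinase gene pim3.L, read at 8.04 in the untreated control and 7.33 in the activin/RA control, was higher with the reagents in both cultures. It rose by 1.35 (limma adjusted p = 0.0155) in untreated caps and differed by 1.16 (limma adjusted p = 0.0749) in activin/RA caps. The mRNA decay factor gene zfp36.L fell by 1.47 in untreated caps (limma adjusted p = 0.0267) and differed by 0.07 in activin/RA caps. The repressor gene klf10.S fell by 1.21 (limma adjusted p = 0.0291) in untreated caps and differed by 0.25 in activin/RA caps. Beside these, the orphan receptor gene nr4a1.S differed by 0.13 in untreated and by 0.97 (limma adjusted p = 0.277) in activin/RA caps, with its lowest value, 4.90, on the activin/RA control array. Without the untreated MO1/2 array 1 copy rose and 1 fell, and the calls of zfp36.L and klf10.S were lost. That of klf10.S was also lost without the untreated MO3 array. Of the 8 calls in untreated caps 2 were kept with each ERK3 morpholino array left out in turn. They were the rise of pim3.L and a fall of ptgs2.S by 1.01 (limma adjusted p = 0.0176).

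With activin/RA 5 of the 45 immediate early copies rose and 7 fell, with a median of -0.03. Of all probe sets 9.60% rose and 10.9% fell in this comparison. The nuclear receptor copy nr4a1.S fell by 1.07 (limma adjusted p = 0.0185) and pim3.L by 0.83 (limma adjusted p = 0.00331), whereas the cyclooxygenase gene ptgs2.S rose by 0.79 (limma adjusted p = 0.0178). Only pim3.L of the 12 calls was kept with each array left out in turn. Without either control array 14 copies rose and 11 fell, and without either MO1/2 array 0 rose and 2 fell. Without either MO3 array 0 rose and 4 fell. Of all 32539 probe sets 4968 rose and at least 5660 fell without either control array. At most 1030 rose and 903 fell without either MO1/2 array, and at most 1332 and 1244 without either MO3 array.

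Genes that ERK1/2 signalling induces to restrain itself, such as dual specificity phosphatases and Sprouty genes, were mostly higher with activin/RA. Of 12 copies 8 rose and 1 fell, against 9.60% and 10.9% of all probe sets, with a median of 0.68 beside -0.01 for all probe sets. The phosphatase gene dusp5.S rose by 1.46 (limma adjusted p = 0.00182), from 7.54 to 8.60 between the control arrays, and spry2.S rose by 1.21 (limma adjusted p = 0.00334). The phosphatase gene dusp1.L fell by 0.56 (limma adjusted p = 0.00972), a call lost without either MO3 array. Between 4 and 8 copies rose with each array left out in turn, with 4 without either MO1/2 array and 5 without either MO3 array. Of all 32539 probe sets at most 1030 rose without either MO1/2 array and 1332 without either MO3 array. For the ERK3 morpholinos 1 of the 12 rose in untreated caps, where 3.14% of all probe sets rose. It was spry1.S, by 1.30 (limma adjusted p = 0.0249), a call lost without the untreated MO1/2 array. In activin/RA caps 0 of the 12 passed in limma (0.138% of all probe sets), with 1 at an unadjusted p under 0.05 (10.9%). The median in activin/RA caps was 0.08.

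**Figure D3:**
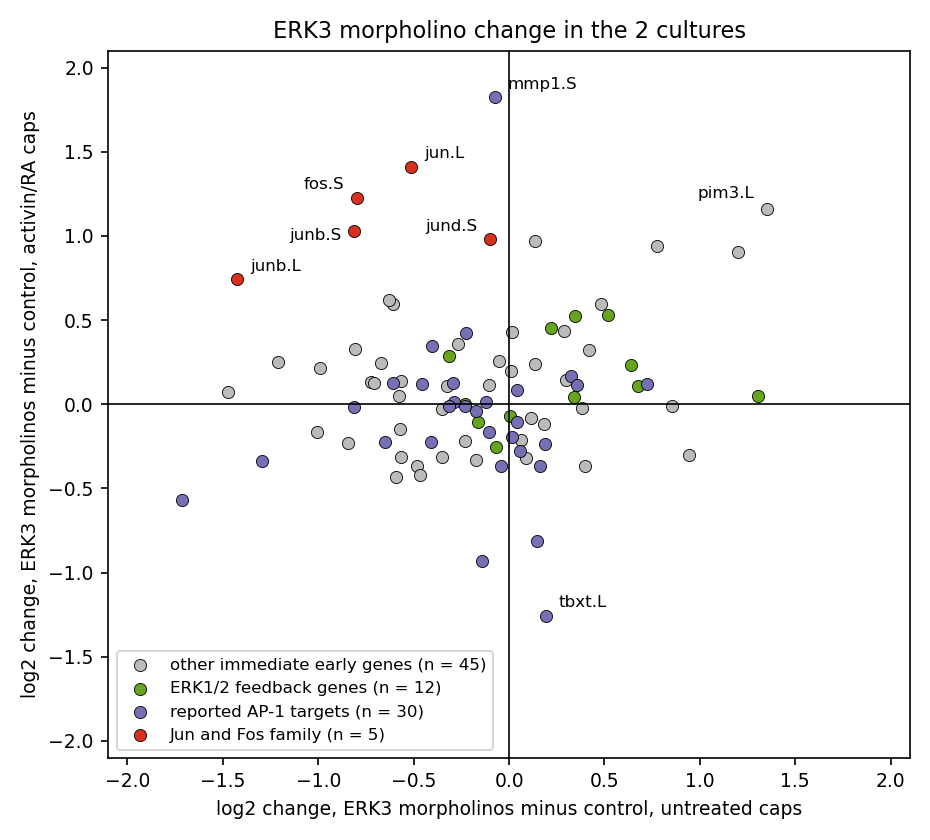
Mean ERK3 morpholino change against control (log2) in untreated caps (horizontal axis) and in activin/RA caps (vertical axis), with 1 point per gene copy of the Jun and Fos family, the other immediate early genes, the ERK1/2 feedback genes and the reported AP-1 targets. The 5 family copies lie below 0 in untreated caps, jund.S only at -0.10, and from 0.74 to 1.41 in activin/RA caps. Few copies of the other lists lie as high there. The place of jun.L and fos.S was set by their choice, which used both changes. Each copy is shown by its probe set of highest mean signal. The other probe set of junb.S differed by 0.13 and 0.45 in the 2 cultures. That of jund.S, near the bottom of the scale, differed by 0.02 and 0.02.

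Genes reported as AP-1 targets in mammalian cells, with brachyury added from work in Xenopus, were taken as a list of 33 names. Of these 22 were measured, through 30 copies, and 15 of the 30 were at or below the median signal on all arrays. Of the 30, 4 also stood in the lists of markers or stress genes. In activin/RA caps 1 copy rose with the ERK3 morpholinos and 0 fell (0.0123% and 0.126% of all probe sets), with a median of -0.03. The copy that rose was mmp1.S, which encodes a collagenase whose mammalian gene is a classic AP-1 target. Its log2 signal was 3.49, 3.36 and 3.47 in untreated caps and 5.01, 6.78 and 6.90 in activin/RA caps, for control, MO1/2 and MO3. The arrays of the untreated caps were thus level, while in activin/RA caps both reagents stood well above the control. The untreated values lay below the median of all values (5.10), where a response could be missed. The rise was 1.83 ± 0.21 (SE; limma adjusted p = 0.0421). The call was lost without any 1 of the 4 ERK3 morpholino arrays, and with a filter at the median signal (limma adjusted p = 0.176). With activin/RA mmp1.S rose by 2.79 (limma adjusted p = 0.00317), a call kept with each array left out in turn.

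In untreated caps 2 of the 30 targets fell with the ERK3 morpholinos and 0 rose, with a median of -0.13, where 3.56% of all probe sets fell. Cyclin D1, the G1 cyclin, fell by 1.29 as ccnd1.S (limma adjusted p = 0.0385), and ccnd1.L differed by -1.71 (limma adjusted p = 0.0506). The beta1 integrin copy itgb1.S fell by 0.81 (limma adjusted p = 0.0245). Without the untreated MO1/2 array 0 of the 30 passed, and without the untreated MO3 array 4 fell. The call of ccnd1.S was also lost without either activin/RA ERK3 morpholino array. With activin/RA 4 of the 30 rose and 2 fell, where 9.60% of all probe sets rose and 10.9% fell. The brachyury copies tbxt.S and tbxt.L rose by 4.07 and 2.07 (limma adjusted p of 0.000113 and 0.00491), calls kept with each array left out in turn. The ERK3 difference of tbxt.L in activin/RA caps was -1.26 (limma adjusted p = 0.149) and that of tbxt.S 0.12. Without either control array 8 of the 30 rose and 2 fell, where 4968 of all 32539 probe sets rose and at least 5660 fell.

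Genes with the array profile most like that of the members were sought among 10520 probe sets with 1 symbol and a signal above the median on at least 1 array. Likeness was the Euclidean distance between log2 profiles over the 6 arrays, each centred on its own mean, so that a smaller value is a closer profile. The nearest to jun.L were atf3.L at 0.39, cebpb.L at 0.56, jund.S at 0.69, junb.S at 0.75 and h2ac7.L at 0.77. Probe sets of jun and fos were left out of this search. For comparison, the median distance from jun.L was 1.49, and jun.L and fos.S stood 0.79 apart. Both members were chosen on their ERK3 changes over these arrays, so their closeness to each other is partly set by the choice. The nearest to fos.S were sgk1.S at 0.77, rasd1 at 0.80, cebpb.L at 0.81, MGC115312 at 0.86 and hs3st1.L at 0.86. Only cebpb.L was among the 5 nearest of both members. All 9 of these genes were lowest on the activin/RA array with the control morpholino, for example cebpb.L at 5.36 against 6.07 to 6.57 on the other arrays of either culture. Both members were lowest on that array, so a search for profiles like theirs favours such genes.

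**Figure D4:**
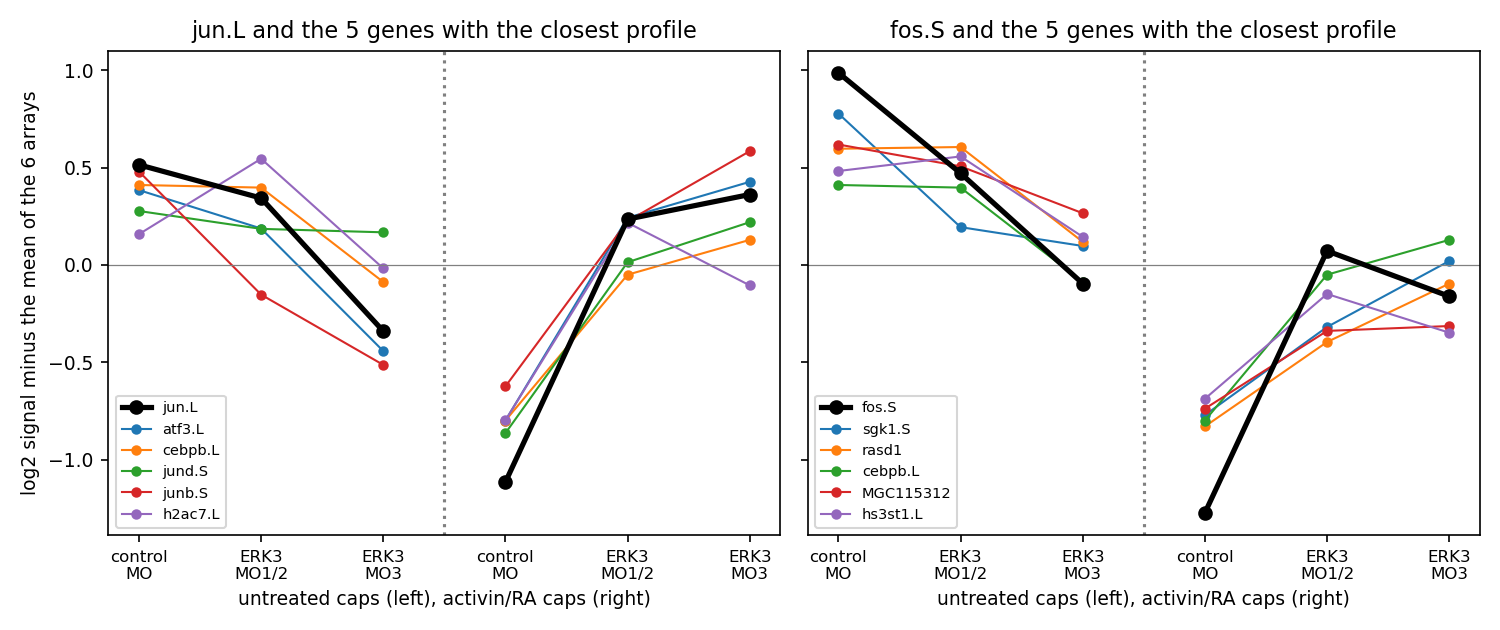
Log2 signal centred on each gene's own mean (vertical axis) over the 6 arrays (horizontal axis) for jun.L and its 5 nearest genes and for fos.S and its 5 nearest genes, with 1 line per gene. All lines have their lowest point at the activin/RA control array, which a search for profiles like those of the members favours.

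A narrower pattern was counted with no test: both reagents below the control in untreated caps and at least 2-fold above it in activin/RA caps. It was held by 13 probe sets (0.0400%), 3 of which were jun.L, fos.S and the probe set of both jun copies. The pattern is that of the members' own ERK3 changes, which the choice used, so their place in it was fixed. The probe set of both copies can share probes with jun.L. The others with a symbol were atf3.L, mmp1.S, socs3.S, acod1lb.L and 2 probe sets of rbp4.L, and 4 had none. The cytokine signalling inhibitor gene socs3.S read 7.58, 3.76 and 4.19 in untreated caps and 2.99, 4.07 and 5.31 in activin/RA caps, for control, MO1/2 and MO3. It shared the order of control against reagents with jun.L and fos.S, but its largest gap lay in untreated caps.

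The genes next to the members were also read out. In the RefSeq gene order 4 of the 8 nearest neighbours of jun.L and 5 of the 8 of fos.S were measured. In activin/RA caps the neighbours of jun.L differed from the control by -0.26 to 0.26 with the ERK3 morpholinos. Among those of fos.S, tmed10.S, the adjacent gene, differed by -0.17 and cipc.S by 0.76 (limma adjusted p = 0.624). The reagents differed for cipc.S, at 6.53 with MO1/2 and 5.46 with MO3 against 5.23 in the activin/RA control. With activin/RA cipc.S fell by 0.72 and a further neighbour of fos.S by 0.48 (limma adjusted p of 0.0154 and 0.0141). No other measured neighbour passed for activin/RA, where 10.9% of all probe sets fell. No measured neighbour passed for the ERK3 morpholinos in either culture, where 6.70% of all probe sets passed in untreated and 0.138% in activin/RA caps.

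Other gene groups moved with the same arrays, and their part in the jun.L and fos.S values was not tested. Heat shock and stress genes, which respond to some of the stimuli that induce jun and fos, were measured as 21 copies. Their median ERK3 difference was -0.01 in untreated caps, where 1 rose and 2 fell (3.14% and 3.56% of all probe sets), and -0.03 in activin/RA caps, where 0 passed in limma, with 2 at an unadjusted p under 0.05. Of all probe sets 0.138% passed in activin/RA caps and 10.9% had an unadjusted p under 0.05 in limma. The secretory stress factor gene xbp1.L fell by 1.40 in untreated caps (limma adjusted p = 0.0155) and differed by -0.20 in activin/RA caps. Blood, myeloid and endothelial markers, whose cells can carry high jun and fos levels, were at or below the median signal on all arrays for 9 of 13 copies. With activin/RA 2 of the 13 rose and 1 fell, by 3.87 (limma adjusted p = 8.12e-05). Of all probe sets 9.60% rose and 10.9% fell there. With the ERK3 morpholinos 1 of the 13 fell in untreated caps (3.56% of all probe sets), by 1.98 (limma adjusted p = 0.0493). That call was lost without the untreated MO1/2 array. In activin/RA caps 0 of the 13 passed in limma, with 1 at an unadjusted p under 0.05. Transcripts stored in the egg, measured as 25 copies, had a median ERK3 difference of 0.86 in untreated caps, where 13 rose and 0 fell (3.14% and 3.56% of all probe sets), and of 0.32 in activin/RA caps, where 0 passed in limma, with 5 at an unadjusted p under 0.05. Without the untreated MO1/2 array 5 of the stored transcripts rose, and of the stress genes 0 rose and 1 fell. Without the untreated MO3 array 0 stress genes rose and 4 fell, and without either activin/RA ERK3 morpholino array 1 rose and 1 fell. The summed linear intensity of the stored transcripts was 4733 in the untreated control against 10779 and 10462 with the reagents, and 6470 in the activin/RA control against 9542 and 7170.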

How the data were processed

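The labels place 6 arrays (Affymetrix GeneChip Xenopus laevis Genome 2.0) in 6 groups of 1. Per the series' design text, the authors scanned them with GeneChip Operating Software 1.4 and normalized them with the robust multi-array average (RMA). The deposited table holds linear intensity (lowest 2.13, highest 18347) and no detection calls. All columns were mapped to a sample (0 unmapped).

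Here log2 was taken of every value with no constant, since 0 values were at or below 0. The 96 control probe sets of the 32635 in the table were dropped, and no filter on level was set. Platform annotation gave 1 symbol to 15495 probe sets, several to 279 and none to 16765. Where a gene copy had several probe sets, the one of highest mean signal stands for it.

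Tests used limma 3.58.1 in R 4.3.3 (lmFit, eBayes with an intensity trend), with Benjamini-Hochberg adjustment over all 32539 probe sets and a threshold of 0.05. The culture effect and MO3 against MO1/2 came from a fit with the morpholino as a block and culture. ERK3 changes came from a fit of culture, knockdown and their interaction, in which the 2 reagents stood in for replicates. Each of these fits had 2 residual degrees of freedom, and fewer with an array left out. A culture's single control array was taken to vary as the rest do, and the number of arrays limits the precision. The fits were checked on simulated data, with noise drawn separately for each array at the spread between the ERK3 reagents. No deviating control array was simulated, so that check does not cover this weakness.

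The members and the gene lists were chosen with earlier results of these data known. Genes are named by a rule: all members of the Jun and Fos and ERK3 lists, up to 4 of each other list with the largest change in each comparison, and the 5 nearest profiles of each member. The genes of the narrower opposite pattern, cipc.S, tmed10.S and the probe set of both jun copies were named after their values were seen. Alternatives were no trend, a filter at the median signal, quantile normalization, log2 of the signal plus 16, no morpholino block, median centring and each array left out in turn. The interaction test, the centring, and leaving out arrays for listed genes and between reagents were chosen after seeing the data.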

Additional observations from a re-analysis of the deposited data

Results flagged for a closer look

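Of the 53 genes named above, 18 had both reagents on one side of the control in untreated caps and both on the other side in activin/RA caps, 16 of them lower in untreated and higher in activin/RA caps. Of all probe sets, 8.86% were likewise lower in untreated and higher in activin/RA caps with both reagents. Many of the 53 were named for this pattern or for a profile like that of a member, so their count is not read against that share. The values here are the mean ERK3 change in activin/RA caps minus that in untreated caps, on the log2 scale. For jun.L it was 1.92 and for fos.S 2.03, and for these the difference was not tested because it was used to choose them.

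For the others the interaction term was tested in limma, and 0 of 32539 probe sets passed, with 3061 at an unadjusted p under 0.05. In the Jun family the value was 2.17 for junb.L, 1.84 for junb.S and 1.08 for jund.S. Among other leucine zipper genes it was 1.64 for atf3.L, 1.09 for cebpb.L and 0.97 for nfe2l2.L. The cytokine signalling inhibitor socs3.S had 5.30, with a mean change of -3.61 in untreated and 1.70 in activin/RA caps. It was 2.21 for acod1lb.L, 1.90 for mmp1.S, 1.54 for rbp4.L, 1.46 for klf10.S and 1.25 for sgk1.S. Smaller values were found for MGC115312 (0.64) and hs3st1.L (0.60). The values of hs3st1.L and acod1lb.L are those of their probe sets of highest signal, which are not the probe sets met above. In the hs3st1.L probe set among the nearest profiles the reagents disagreed in untreated caps, with MO1/2 at 5.29 and MO3 at 4.87 against 5.21 in the control. The acod1lb.L probe set of the narrower pattern read 7.27, 5.02 and 5.63 in untreated caps, for control, MO1/2 and MO3. With activin/RA it read 7.46, 8.56 and 8.80 in the same order. The opposite direction was found for tbxt.L, at -1.45, and for pak2.S, at -0.37.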

How the results depend on the processing

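With each array left out in turn, jun.L in activin/RA against untreated caps ranged from -0.87 to 0.30, positive without either control array, and fos.S from -1.33 to -0.23. Between the reagents jun.L ranged from -1.06 to 0.51 and fos.S from -1.03 to 0.23, positive without the untreated MO3 array. With an array left out, these estimates for the members can draw in part on the ERK3 changes that the choice used. The ERK3 change of jun.L in activin/RA caps was 1.16 with log2 of the signal plus 16. Probe sets passing for activin/RA numbered 2860 with no morpholino block and 1859 to 10636 with an array left out, the highest without a control array. Between the reagents 0 to 778 passed, with calls only without a control array. For the ERK3 morpholinos in untreated caps 322 to 2482 passed, the lowest without the untreated MO1/2 array. In activin/RA caps 16 passed with no trend, 0 with the filter, 203 with log2 of the signal plus 16 and 0 to 27 with an array left out, 0 without the activin/RA MO3 array. For the interaction 6 passed with log2 of the signal plus 16, 1 with centring and 0 to 2 with an array left out. Counts at least 2-fold with both reagents fell with log2 of the signal plus 16 to 251 higher and 385 lower in untreated and 21 higher and 115 lower in activin/RA caps. With 1 reagent alone they were 846 to 1310, 937 to 1712, 129 to 246 and 470 to 537 in that order. Without a control array no ERK3 change can be formed in its culture. The causes of these differences were not tested, except that fewer arrays leave fewer degrees of freedom. The other alternatives kept direction, call and count (98 of 136 comparisons with the reported value). A count within 1.5 times of the reported one was taken as kept. A member's ERK3 change was taken as kept if it moved by less than the SD of the 2 reagents. Leaving out 1 reagent or filtering on signal could not break that rule, so those outcomes were fixed in advance. Counts over gene lists stayed within 1.5 times in 573 and moved in 147. A count of 0 in both fits was taken as kept in both tallies. Many list counts were 0 throughout, so the 573 is no measure of stable calls. Calls over all probe sets also moved with the array left out, so list counts in those fits are read beside them.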

Other observations

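A probe set annotated to both copies of egr1, the zinc finger immediate early gene, carries no single symbol and so stood outside the lists above, and it was singled out after its values were seen. Its log2 signal was 8.24, 6.48 and 6.39 in untreated caps and 6.79, 8.29 and 7.50 in activin/RA caps, for the control morpholino, MO1/2 and MO3. It fell with the ERK3 morpholinos in untreated caps by 1.80 (limma adjusted p = 0.0244) and differed by 1.10 in activin/RA caps (limma adjusted p = 0.291). The difference between the cultures was 2.90 (limma adjusted p = 0.269). The probe sets of both id3 copies and both klf6 copies, other immediate early genes, differed in activin/RA caps by -0.23 and -0.15, and that of both dusp1 copies by 0.54.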
